A study of Mus musculus with 90 samples.

Results

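The 10 genes described here carry out or control de novo fatty acid synthesis, and they were taken from the expression table by their mouse Entrez identifiers: Acly, Me1, Acaca, Fasn, Elovl6, Scd1, Dgat2, Srebf1, Mlxipl and Thrsp. All 10 were found among the 20414 genes of the table. Each gene has a value in 90 libraries, which are 3 from estrus and 3 from diestrus in each of 15 tissues. The mice were wildtype C57BL/6 females (C57BL/6J in the methods), 10 weeks old according to the labels, with no transgene and no drug, and the phase was read from vaginal cytology. The tissues were brown adipose tissue (BAT), white adipose tissue (WAT), liver, aorta, vein, heart, skeletal muscle, kidney, duodenum, stomach, spleen, ovary, uterus, cerebrum and hypothalamus. BAT, WAT and liver, 18 libraries in all, were examined first. Neither the depot of WAT or BAT nor the mouse behind each library is given in the labels. Each phase had 3 mice, from which the 15 tissues were dissected, so libraries of different tissues share mice, and the tests between tissues treat them as independent.

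De novo lipogenesis turns surplus carbohydrate into fat. Citrate leaves the mitochondrion and is cut to cytosolic acetyl-CoA, which is carboxylated to malonyl-CoA and joined into palmitate with the reducing power of NADPH, and the product is then elongated, desaturated and esterified to triglyceride. Adipocytes and hepatocytes are the main sites, the enzymes are regulated together at the level of transcription by insulin and glucose, and the pathway falls in fasting and follows the feeding rhythm.

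Levels are given as FPKM, a read abundance divided by transcript length and by library size. The table does not name its unit, which was read from the values and the tools. Comparisons between libraries also depend on the scaling, since the values of a library summed to between 353706 and 623534, and results that another scaling changed are given with it. The tissue labels were checked with marker genes. Adipoq, the adipocyte hormone adiponectin, was at 804 to 1063 FPKM in BAT and at 2299 to 3382 FPKM in WAT, and it was at 0 to 0.1 FPKM in liver. Ucp1, the uncoupling protein of brown adipocytes, was at 3492 to 5574 FPKM in BAT and at 0.66 to 32.8 FPKM in WAT, and Alb, albumin, was at 40374 to 57329 FPKM in liver. Aorta and vein also held much adipocyte RNA, with Adipoq at 104 to 1148 FPKM in aorta and at 564 to 1476 FPKM in vein, and with Ucp1 at 205 to 2896 and at 111 to 755 FPKM. The library of BAT estrus replicate 3 stood apart, with 12048 genes at 0 against 2404 to 4820 in the other 89 libraries, and its smallest values over 2216 short genes were 71.1 times the median of the other BAT libraries. Between tissues, 10 genes in BAT against 12 tissues, 2 against WAT and 8 against liver were called both with and without it. The phase fold changes of the 10 genes in BAT are given both ways. The phase values of the gene lists in BAT and the interactions are given only with this library included.

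The 10 genes were highest in fat. Of the 15 tissues, BAT and WAT had the 2 highest means for 7 of them (Acly, Acaca, Fasn, Elovl6, Scd1, Dgat2 and Thrsp). WAT and vein led for Me1 and Srebf1, and BAT and liver led for Mlxipl. Vein and aorta followed BAT and WAT for the same 7 genes, in 1 order or the other. From the highest to the lowest tissue mean, the range was 1902-fold for Scd1, 1521-fold for Thrsp, 1057-fold for Elovl6, 794-fold for Mlxipl, 629.6-fold for Me1, 529-fold for Fasn, 448-fold for Dgat2, 185-fold for Acaca and 80.2-fold for Acly. For Srebf1 it was 21.5-fold, the narrowest of the 10. In the order of tissue means, 119 of the 140 pairs of neighbouring tissues overlapped in their 6 libraries, so that the exact order of most neighbours cannot be read from these values.

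**Figure D1:**
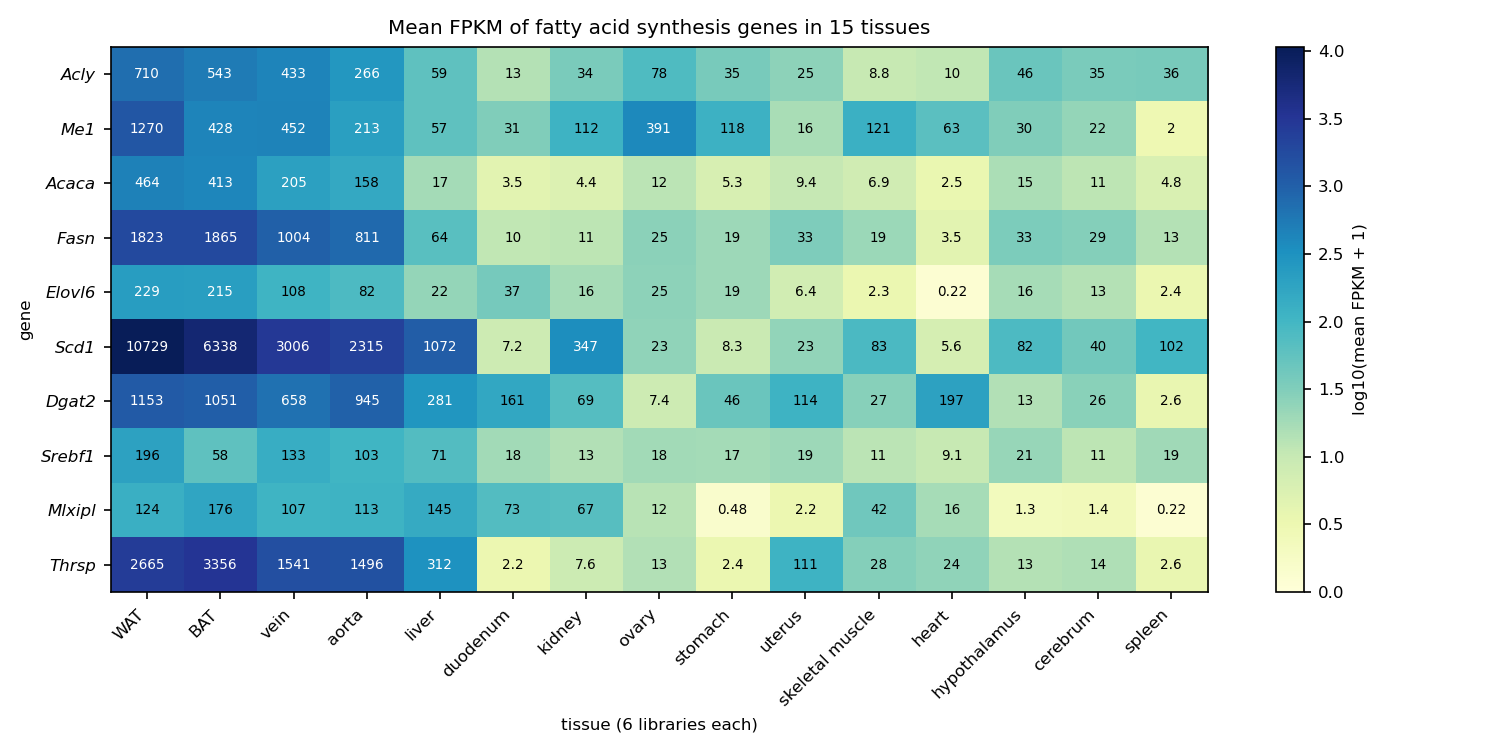
Mean FPKM over 6 libraries of each of the 10 genes (rows) in each of the 15 tissues (columns). The colour is the log10 of the mean FPKM + 1, and the number in each cell is the mean FPKM. BAT and WAT are the highest tissues for 7 genes, with aorta and vein next, while vein leads with WAT for Me1 and Srebf1 and liver with BAT for Mlxipl, and Srebf1 has the narrowest range.

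The sequences before the transcription starts of 4 genes are printed here because these genes were among the most abundant in fat or, for Mlxipl, stood as high in liver as in fat, and because sequence motifs of known lipogenic regulators can be read in them. They are the 250 bases upstream of the RefSeq start in GRCm38.p6, written 5′ to 3′ on the strand of the gene. Capitals mark every match, on either strand, to the CCAAT box (CCAAT), the E-box (CACGTG) and the GC box (GGGCGG), which can be bound by the factors NF-Y, USF and Sp1, respectively. The regions are chr11:120824548-120824797 on the minus strand for Fasn, chr7:97417551-97417800 on the minus strand for Thrsp, chr11:100528001-100528250 on the minus strand for Acly and chr5:135089640-135089889 on the plus strand for Mlxipl.
Fasn: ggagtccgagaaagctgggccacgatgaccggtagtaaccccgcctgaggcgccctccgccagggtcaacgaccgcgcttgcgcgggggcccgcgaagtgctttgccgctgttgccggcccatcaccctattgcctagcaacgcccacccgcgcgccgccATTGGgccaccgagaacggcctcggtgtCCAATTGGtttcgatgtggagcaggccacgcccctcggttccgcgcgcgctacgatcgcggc
Thrsp: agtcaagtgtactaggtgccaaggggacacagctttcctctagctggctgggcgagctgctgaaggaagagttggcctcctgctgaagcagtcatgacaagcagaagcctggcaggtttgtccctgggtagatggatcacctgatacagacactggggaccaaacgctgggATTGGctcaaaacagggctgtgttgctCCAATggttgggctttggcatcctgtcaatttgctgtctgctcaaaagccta
Acly: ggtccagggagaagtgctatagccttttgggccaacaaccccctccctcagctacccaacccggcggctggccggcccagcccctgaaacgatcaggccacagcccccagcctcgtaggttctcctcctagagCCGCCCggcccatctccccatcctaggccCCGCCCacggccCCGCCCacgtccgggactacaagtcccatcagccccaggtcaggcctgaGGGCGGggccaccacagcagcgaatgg
Mlxipl: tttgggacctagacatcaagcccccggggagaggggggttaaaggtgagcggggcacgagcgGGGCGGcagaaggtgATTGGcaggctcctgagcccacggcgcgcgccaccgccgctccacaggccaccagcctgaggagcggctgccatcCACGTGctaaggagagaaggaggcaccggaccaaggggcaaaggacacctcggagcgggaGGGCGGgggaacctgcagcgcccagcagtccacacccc

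With the base before the start counted as -1, and each match placed by its leftmost base, the Fasn sequence held CCAAT boxes at -90, -62 and -59, of which the last 2 overlap on opposite strands. Thrsp held them at -79 and -52. Acly held GC boxes at -117, -88, -76 and -27, and Mlxipl held a CCAAT box at -173, an E-box at -98 and GC boxes at -188 and -38. Windows of 300 bases, from 250 before to 50 after the start, were found for 8 of the 10 genes, 12 windows in all. Of the 12 windows, 7 held a CCAAT box, 5 a GC box, 1 an E-box (Mlxipl), 1 a sterol regulatory element of the letters TCACNCCAC (a further Mlxipl window, at -136) and 0 the TATA box TATAAA. Windows of the same gene can overlap. Of all 32851 windows of this length, 37.4% held a CCAAT box, 35.7% a GC box, 7.15% an E-box, 1.24% the sterol regulatory element and 13.6% a TATA box. A match is a description of the letters and shows no binding.

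Acly, ATP citrate lyase, which supplies cytosolic acetyl-CoA, had a mean of 709.96 ± 377 FPKM (SD, n = 6) in WAT, 543 ± 187 FPKM in BAT and 58.5 ± 11.9 FPKM in liver. Its 6 values in WAT ran from 234 to 1297 FPKM with a median of 761 FPKM, and the 6 in BAT from 306 to 755 FPKM with a median of 555 FPKM. No library outside BAT, WAT, aorta and vein exceeded 98.7 FPKM, which was reached in ovary estrus replicate 3. The lowest of the 12 fat libraries was therefore above the highest of those 66.

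Me1, the cytosolic malic enzyme and a source of NADPH, was at 1269.7 ± 620.3 FPKM in WAT and 428 ± 116 FPKM in BAT. It did not separate fat from the other tissues. The ovary, at 391 ± 149 FPKM, had about the level of BAT, and ovary estrus replicate 1 reached 675 FPKM, above all 6 BAT libraries. The liver held 57.4 ± 12.1 FPKM, less than skeletal muscle (121 ± 11.9 FPKM), stomach (118 ± 26.5 FPKM) and kidney (112 ± 13.6 FPKM). The 6 liver values, from 40.4 to 70.7 FPKM, did not overlap those of any of these 3 tissues.

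Acaca, acetyl-CoA carboxylase alpha, which makes malonyl-CoA, was at 464 ± 113 FPKM in WAT, 413 ± 74.4 FPKM in BAT and 16.9 ± 2.66 FPKM in liver. Fasn, the synthase that builds palmitate, was at 1865 ± 350.2 FPKM in BAT, 1823 ± 402 FPKM in WAT and 63.9 ± 15.1 FPKM in liver. Fasn ran from 1553 to 2507 FPKM in the 6 BAT libraries and from 1227 to 2445 FPKM in the 6 WAT libraries, so BAT and WAT overlapped. In WAT Fasn was the gene with rank 17 by mean FPKM, and in BAT it had rank 35. Outside BAT, WAT, aorta and vein its highest value was 86.0 FPKM, in liver diestrus replicate 3, and its lowest tissue mean was 3.53 ± 0.492 FPKM, in heart.

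Acaca was the only one of the 10 genes whose 24 libraries of BAT, WAT, aorta and vein were all above the other 66 libraries. The lowest of the 24, aorta estrus replicate 1, was at 24.6 FPKM, and the highest of the 66, liver diestrus replicate 3, was at 21.6 FPKM. Without this aorta library the lowest of the rest was 79.6 FPKM, in vein diestrus replicate 2.

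Elovl6, which elongates palmitate to stearate, was at 229 ± 134 FPKM in WAT, 215 ± 25.0 FPKM in BAT and 21.6 ± 7.77 FPKM in liver. Duodenum, at 37.4 ± 10.5 FPKM, had a higher mean than liver, although their libraries overlapped. In heart all 6 values of Elovl6 were between 0.16 and 0.29 FPKM, the lowest of its 15 tissues.

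Scd1, the desaturase that makes oleate and palmitoleate, was the most abundant of the 10 genes in WAT, BAT, vein, aorta and liver. It had a mean of 10729 ± 3629.7 FPKM in WAT, where it had rank 4 of all genes, 6338 ± 1772 FPKM in BAT, where it had rank 3, and 1072 ± 459.5 FPKM in liver, where it had rank 60. It ranked 5 in vein (3006 ± 1738 FPKM) and 10 in aorta (2315 ± 1590.0 FPKM). The kidney followed the liver, at 347 ± 96.0 FPKM. The close paralogs Scd2, Scd3 and Scd4 can share reads with Scd1, so the division between them is uncertain. In WAT Scd2 was listed at 39.0 to 168 FPKM, and Scd3 and Scd4 at 0.16 to 0.9 FPKM.

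Dgat2, which joins the last fatty acid to diacylglycerol, was at 1153 ± 214 FPKM in WAT, 1051 ± 185 FPKM in BAT and 281 ± 39.7 FPKM in liver. Its level stayed high in several tissues with little Fasn. Heart had 197 ± 26.3 FPKM of Dgat2 beside the lowest Fasn mean, and duodenum had 161 ± 116 FPKM of Dgat2 beside 10.0 ± 4.54 FPKM of Fasn. Dgat2 is also used to esterify fatty acids that were taken up.

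Among the regulators, Thrsp, a small protein of lipogenic tissues that responds to thyroid hormone and carbohydrate, was at 3356 ± 715 FPKM in BAT and 2665 ± 1036 FPKM in WAT, with ranks 15 and 9 among all genes. It was at 312 ± 169.5 FPKM in liver. Uterus came next, at 111 ± 91.3 FPKM with values from 8.01 to 269.6 FPKM.

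Srebf1, the transcription factor gene that answers to insulin and sterols, was at 196 ± 43.7 FPKM in WAT, 71.2 ± 28.2 FPKM in liver and 58.2 ± 17.1 FPKM in BAT. In BAT it ran from 42.3 to 83.1 FPKM and in WAT from 126 to 241 FPKM, with no overlap. Mlxipl, which encodes the carbohydrate response element binding protein, was at 176 ± 24.3 FPKM in BAT, 145 ± 17.9 FPKM in liver and 124 ± 33.6 FPKM in WAT, and these 3 tissues overlapped. Mlxipl was almost absent from the tissues at the other end, with 0.222 ± 0.0950 FPKM in spleen and 0.480 ± 0.190 FPKM in stomach.

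**Figure D2:**
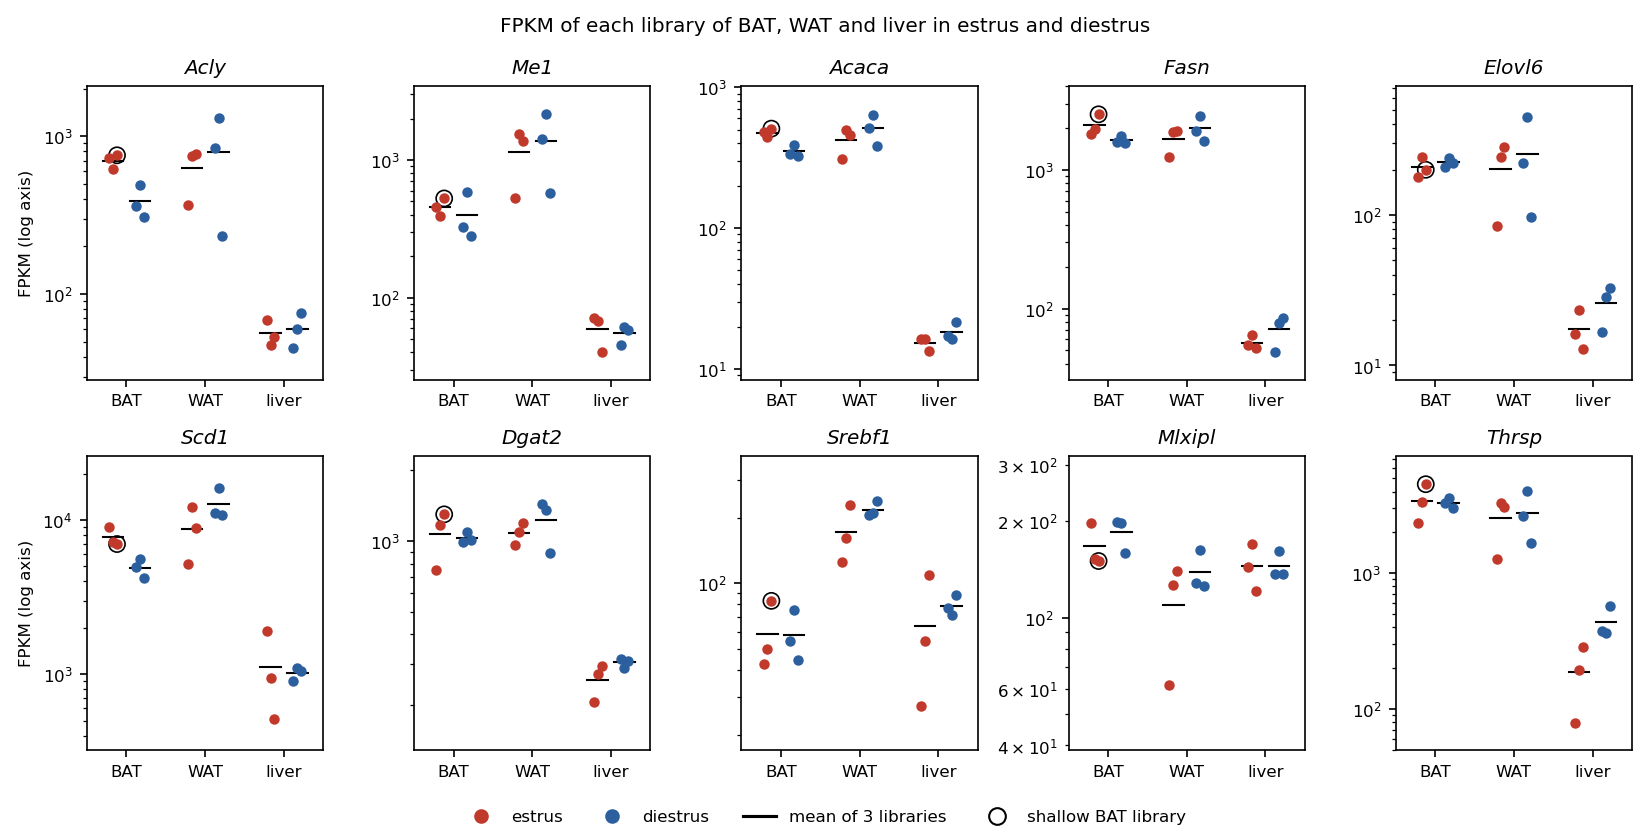
FPKM of the 10 genes in the single libraries of BAT, WAT and liver, on a log axis, with estrus in red, diestrus in blue and a bar at the mean of 3 libraries. The ring marks BAT estrus replicate 3. Fat stood above liver for 8 genes, Mlxipl was level in the 3 tissues, and Srebf1 in BAT was at the level of liver.

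These levels were compared across tissues in 1 limma fit of log2(FPKM + 1) over all 90 libraries, with 15226 genes and Benjamini-Hochberg adjustment over all of them. On this scale the change of low genes is understated. A gene was called when the log2 fold change was at least 1 in either direction and the adjusted p was at most 0.05. In a contrast of whole tissues, fewer cells of a type and less RNA per cell cannot be told apart.

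Against the mean of the 12 tissues other than BAT, WAT and liver, BAT had higher levels of all 10 genes, where 8.88% of all genes were called higher and 24.1% lower. The log2 fold changes were 7.07 ± 0.31 (SE) for Thrsp, 6.58 ± 0.33 for Scd1, 5.89 ± 0.30 for Fasn and 5.08 ± 0.22 for Acaca. They were between 2.81 and 4.23 for Dgat2, Elovl6, Mlxipl, Acly and Me1, and 1.39 ± 0.18 for Srebf1, whose adjusted p by limma was 3.15e-10. The median over the 10 genes was 4.16, beside -0.54 over all genes.

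WAT was higher than the same 12 tissues for all 10 genes as well, where 8.04% of all genes were called higher and 12.3% lower. Scd1 had the largest difference of the 10, a log2 fold change of 7.30 ± 0.33, followed by Thrsp at 6.65 ± 0.31, Fasn at 5.84 ± 0.30 and Acaca at 5.24 ± 0.22. Srebf1, at 3.14 ± 0.18, had the smallest. The median over the 10 genes was 4.31, beside -0.22 over all genes.

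Liver was higher than the 12 tissues for 6 of the 10 genes, where 8.14% of all genes were called higher and 39% lower. These were Scd1 with a log2 fold change of 3.95 ± 0.33, Mlxipl with 3.54 ± 0.16, Thrsp with 3.43 ± 0.31, Dgat2 with 2.34 ± 0.27, Srebf1 with 1.61 ± 0.18 and Fasn with 1.03 ± 0.30. Fasn was close to the limit, with an adjusted p of 0.00109 by limma, and its fold change was 0.95 without liver diestrus replicate 3. Elovl6 (0.76 ± 0.31), Acly (0.60 ± 0.28) and Acaca (0.56 ± 0.22) were under the fold limit and Me1 was at -0.04 ± 0.25, a value that turned above 0 with a pseudocount of 0.1 and with upper quartile scaling. After scaling each library to its upper quartile, a change that moved the median of all genes from -0.82 to -0.46, Elovl6, Acaca and Acly passed too, at 1.33, 1.11 and 1.17. The 12 tissues include aorta and vein, whose adipocyte RNA is given above.

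Between the fat tissues, 2 of the 10 genes were called, both lower in BAT, where 5.72% of all genes were called higher in BAT and 12.6% lower. Srebf1 was lower by a log2 fold change of -1.74 ± 0.25 (adjusted p = 1.2e-08, limma) and Me1 by -1.44 ± 0.34 (adjusted p = 0.000217, limma). Mlxipl, at 0.55 ± 0.21, was under the fold limit. The other 7 had fold changes between -0.73 (Scd1, SE 0.45) and 0.41 (Thrsp, SE 0.42), with Fasn at 0.04 ± 0.40, which turned to -0.07 with upper quartile scaling. A gene that was not called here may still differ within the interval that these errors leave.

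BAT was above liver for 8 of the 10 genes, where 22% of all genes were called higher and 10.9% lower. The log2 fold changes were 4.86 ± 0.40 for Fasn, 4.53 ± 0.30 for Acaca, 3.63 ± 0.42 for Thrsp, 3.32 ± 0.43 for Elovl6, 3.14 ± 0.38 for Acly, 2.86 ± 0.34 for Me1, 2.62 ± 0.45 for Scd1 and 1.90 ± 0.37 for Dgat2. The exceptions were the transcription factor genes, Mlxipl at 0.28 ± 0.21 (adjusted p = 0.264, limma) and Srebf1 at -0.21 ± 0.25 (adjusted p = 0.482, limma).

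WAT was above liver for 9 of the 10, where 27.8% of all genes were called higher and 8.5% lower. Fasn (4.81 ± 0.40), Acaca (4.68 ± 0.30) and Me1 (4.29 ± 0.34) led, and Srebf1 was higher by 1.53 ± 0.25. Mlxipl was at -0.27 ± 0.21 (adjusted p = 0.25, limma). With upper quartile scaling the calls over all genes turned from 3352 higher and 1661 lower to 2063 and 2350 for BAT against liver, and from 4228 and 1294 to 2674 and 1724 for WAT against liver. The 8 and 9 genes called above liver kept their calls in the same direction, while Mlxipl in BAT turned to -0.35 without reaching a call.

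In aorta 1 library was low for the 10 genes and for Adipoq together. Aorta estrus replicate 1 had the lowest Adipoq of the 6 aorta libraries, at 104 FPKM against 934 to 1148 FPKM. The same library had the lowest value of all 10 genes, with Fasn at 66.0 FPKM against 359 to 1983 FPKM and Dgat2 at 56.8 FPKM against 876 to 1275 FPKM. The genes also varied apart from Adipoq, with Acly at 103 to 797 FPKM in the other 5 aorta libraries. The part of the vessel wall and of the fat around it in these levels was not tested.

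Relative to Adipoq, the members had a median ratio that differed between the fat tissues. Fasn was at 1.93 times the FPKM of Adipoq in BAT (1.499 to 2.57 in the 6 libraries), 0.621 times in WAT (0.511 to 1.06), 0.775 times in aorta and 0.7495 times in vein. Thrsp was at 3.43 times in BAT (2.51 to 4.65) and 0.925 times in WAT (0.531 to 1.75). Mlxipl was at 0.187 times in BAT (0.154 to 0.211) and 0.0447 times in WAT (0.0257 to 0.0708). For these 3 genes the 6 BAT ratios did not overlap the 6 WAT ratios, while the FPKM of each gene did overlap, and Adipoq itself was higher in WAT than in BAT in all libraries.

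Srebf1 had the opposite order of medians, with a median ratio of 0.0534 in BAT, 0.0708 in WAT, 0.123 in aorta and 0.138 in vein. Its ratios in BAT (0.0452 to 0.0853) and in WAT (0.0524 to 0.0916) overlapped, however. Me1 was level by its medians, at 0.448 in BAT (0.308 to 0.551) and 0.459 in WAT (0.201 to 0.939). Skeletal muscle gave a further example of members beside adipocyte RNA. The Fasn values of skeletal muscle were 43.3, 14.4 and 7.85 FPKM in estrus and 4.08, 21.1 and 25.8 FPKM in diestrus. Its Adipoq values in the same order were 29.5, 25.1, 10.6, 2.60, 23.4 and 22.4 FPKM. The library with the least Adipoq also had the least Fasn, and the library with the most had the most.

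**Figure D3:**
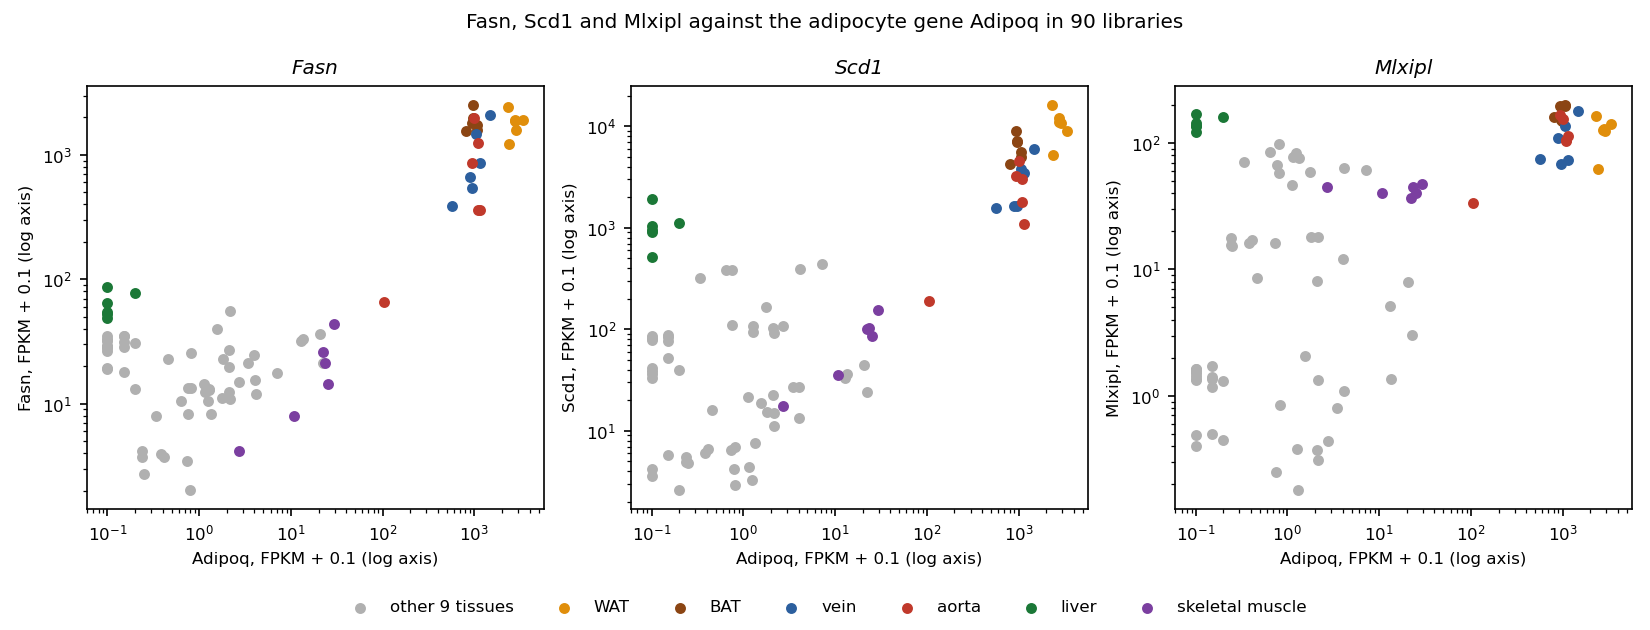
FPKM + 0.1 of Fasn, Scd1 and Mlxipl (vertical, log axis) against that of Adipoq (horizontal, log axis) in the 90 libraries, coloured by tissue. BAT, WAT, aorta and vein lie at the upper right, while the liver libraries stand apart with Adipoq at 0 to 0.1 FPKM and Scd1 at 513 to 1908 FPKM.

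The other genes of the pathway were taken from lists of 66 genes, of which 65 were tested. In BAT 29 were called higher and 12 lower than in the 12 tissues, in WAT 34 higher and 7 lower, and in liver 20 higher and 14 lower. Over all genes the shares called higher and lower were 8.88% and 24.1% in BAT, 8.04% and 12.3% in WAT, and 8.14% and 39% in liver. The same shares apply to each list compared with the 12 tissues below. Among genes of carbon and NADPH supply, 8 of 12 were higher and 2 lower in BAT, led by Tkt and Slc25a1, a pentose phosphate enzyme and the citrate carrier, with log2 fold changes of 4.19 and 3.76. In WAT 9 were higher and 2 lower, with Slc25a1 at 4.2 and G6pdx, the first enzyme of the pentose phosphate pathway, at 3.00. In liver 4 were higher and 5 lower, led by Pklr (5.03), the pyruvate kinase gene of liver and red cells, and Acss2 (2.2), which makes acetyl-CoA from acetate.

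Acacb, the carboxylase at the mitochondrial membrane, was higher by 4.14 in BAT and by 2.79 in WAT. Of the other genes of elongation and desaturation, Elovl3, an elongase known from brown fat, was higher in BAT by 5.24, while Fads2 was lower by -2.09. In liver Elovl2 (6.42), Fads2 (3.89), Fads1 (3.26) and Elovl5 (2.22), which make long polyunsaturated fatty acids, were higher and Scd2 was lower (-4.50).

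Of 14 other genes of triglyceride assembly, 9 were higher and 2 lower in BAT and 10 higher and 1 lower in WAT. Agpat2, which acylates lysophosphatidic acid, had log2 fold changes of 5.37 in BAT and 4.70 in WAT, and Pnpla3 had 4.58 and 5.43. In liver 4 were higher and 4 lower. Among 19 other regulators, the adipocyte factors Pparg and Cebpa were higher by 4.21 and 3.82 in BAT and by 4.36 and 4.67 in WAT. Cebpa (3.38), Nr1h3 (2.59), the liver X receptor alpha gene, and Insig1 (2.22) were higher in liver.

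Between BAT and WAT, 7 of these 65 genes were higher in BAT and 9 lower, where 5.72% and 12.6% of all genes were. Elovl3 (4.13), Me3 (3.17), Cebpb (2.23) and Acacb (1.34) were among the former. Gpat3 (-4.21), Fads1 (-2.79), Mogat2 (-2.13) and Fads2 (-2.0) were among the latter. Against liver, BAT had 29 of the 65 genes higher and 10 lower and WAT had 27 higher and 9 lower. Over all genes these shares were 22% and 10.9% for BAT and 27.8% and 8.5% for WAT. Elovl2 was at -7.54 in BAT and -7.56 in WAT, and Pklr at -6.58 and -6.61.

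The phases were then compared in each tissue on its own, over the genes that averaged 1 FPKM or more in its 6 libraries. Of the 150 pairs of a member and a tissue, 147 were tested, which left out Elovl6 in heart and Mlxipl in spleen and stomach. None was called by limma, with a smallest adjusted p of 0.136, and 22 had an unadjusted p under 0.05, where 7.84% of all tested pairs of a gene and a tissue did. The percent of all genes called in either direction was 0 in 13 of the tissues, 0.00936 in skeletal muscle and 0.00798 in spleen. An exact permutation test of 3 against 3 libraries cannot give a two-sided p below 0.1. All 3 estrus libraries were above all 3 diestrus libraries for 9 of the 147 pairs and below them for 13. Over all genes of a tissue the shares ran from 1.64% (stomach) to 12% (BAT) above and from 2.74% (WAT) to 22.1% (duodenum) below. Of the other genes of the pathway, 0 were called by limma in any tissue, and an unadjusted p under 0.05 was found for 11 of 59 in BAT, 2 of 59 in WAT, 8 of 59 in liver and 16 of 62 in vein. Over all genes the shares with such a p were 12.8%, 5.97%, 5.6% and 12.1%.

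In BAT 4 of the 10 genes had all estrus libraries above all diestrus libraries and 0 had them below, where this held for 12% and 18.1% of all genes. Acly was at 721, 622 and 755 FPKM in estrus and 363, 488 and 306 FPKM in diestrus. Its log2 fold change, estrus minus diestrus, was 0.88 ± 0.18 with an adjusted p of 0.199 by limma, and the range over 12 alternatives was 0.0318 to 0.757. The 3 estrus libraries were the 3 highest of the 6.

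Scd1 was at 9067, 7241 and 6989 FPKM in estrus and 4958, 5552 and 4219 FPKM in diestrus, a log2 fold change of 0.66 ± 0.15. Acaca was at 476, 440.5 and 507 FPKM in estrus and 336, 390.2 and 326 FPKM in diestrus, a log2 fold change of 0.44 ± 0.10. Fasn was at 1812, 1980.2 and 2507 FPKM in estrus and 1593, 1746 and 1553 FPKM in diestrus, a log2 fold change of 0.35 ± 0.14. Their adjusted p-values by limma were 0.201, 0.216 and 0.364, so none passed the test. Over the 12 alternatives these ran from 0.0249 to 0.790, 0.0402 to 0.982 and 0.128 to 0.910, and none of the 3 was called.

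Estrus replicate 3 of BAT, the library that stood apart, was the highest of the 6 for Acly, Acaca and Fasn. Without it the same 4 genes did not overlap, where the background was 23% higher and 26.6% lower, and the log2 fold changes were 0.82, 0.73, 0.39 and 0.22 for Acly, Scd1, Acaca and Fasn. Upper quartile scaling of all 6 libraries moved the median of all genes in BAT from -0.12 to -0.45. The 4 fold changes were then at 0.46, 0.24, 0.02 and -0.07, so Fasn no longer stood above 0. The quartile was taken over values above 0. Estrus replicate 3 had 12048 genes at 0 against 4545 to 4820 in the other BAT libraries. This scaling was not run without estrus replicate 3, and the part of that library in these values was not tested. The skeletal muscle fibre markers varied between the BAT libraries, with a summed level of 972 to 1562 FPKM in estrus and 30.6 to 5750 FPKM in diestrus, so that the estrus range lay within that of diestrus. Of the 9 clock genes that peak with Dbp, 8 were lower in estrus, with a median of -0.71. Their part in the result was not tested.

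The other 6 genes overlapped between the phases in BAT. Me1 was at 0.27 ± 0.28 and Dgat2 at 0.01 ± 0.21, and both were below 0 with upper quartile scaling, at -0.15 and -0.41. Thrsp was at -0.0031 ± 0.24, Srebf1 at -0.01 ± 0.31, Elovl6 at -0.12 ± 0.14 and Mlxipl at -0.15 ± 0.15. Apart from Mlxipl, each of these differences with all 6 libraries was smaller than its standard error. Without estrus replicate 3, Srebf1 was at -0.29 ± 0.23 and Thrsp at -0.23 ± 0.17, both larger in size than their standard errors. Mlxipl was then at -0.09 ± 0.16 and Elovl6 at -0.10 ± 0.15, both smaller than their standard errors. The same held for Dgat2 at -0.14 ± 0.19 and Me1 at 0.17 ± 0.31.

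In WAT none of the 10 genes was without overlap, where 9.25% of all genes were above and 2.74% below in all estrus libraries. All 10 fold changes were below 0, from -0.59 ± 0.40 for Scd1 to -0.09 for Acly, with adjusted p-values of at least 0.803 by limma. With array weights 6 of the 10 were above 0 (Acly, Me1, Elovl6, Srebf1, Mlxipl and Thrsp), so that no direction can be given. The spread within a phase was wide. Acly was at 368, 749.5 and 773 FPKM in estrus and 839, 1297 and 234 FPKM in diestrus. Scd1 was at 5171, 12216 and 8925 FPKM in estrus and 11115.5, 16148 and 10799 FPKM in diestrus. Estrus replicate 1 and diestrus replicate 3 were the 2 lowest libraries for Acly, Me1, Acaca, Fasn, Elovl6, Thrsp, Dgat2 and Mlxipl, and diestrus replicate 2 was the highest for all of these except Dgat2. Adipoq did not share this order, with 2403, 2748 and 3382 FPKM in estrus and 2792, 2299 and 2870.3 FPKM in diestrus. Markers of other cells varied in WAT as well. The summed level of the smooth muscle markers was 202 to 2409 FPKM in estrus and 88.8 to 141 FPKM in diestrus, with 4 of 4 above 0 and a median of 2.07, and that of the erythroid markers was 719 to 10784 FPKM and 640.1 to 2292 FPKM. Their part in these values was not tested.

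In liver 1 of the 10 genes was without overlap, lower in estrus, where this held for 6.84% of all genes, and 0 were higher, against 4.48%. Thrsp was at 79.2, 194 and 287 FPKM in estrus and 374, 364 and 573 FPKM in diestrus. The log2 fold change was -1.38 ± 0.45 with an adjusted p of 0.811 by limma and an unadjusted p of 0.0195. It was -0.86 without estrus replicate 1 and stayed between -1.78 and -0.86 over 12 alternatives. In the same liver libraries Dbp, a clock output gene with a strong daily rhythm, was at 0.98, 44.0 and 127 FPKM in estrus and 126.5, 85.2 and 127 FPKM in diestrus. Estrus replicate 1 was thus the lowest library for Thrsp and for Dbp, and 8 of the 9 genes of the Dbp list were lower in estrus, with a median of -1.09. The part of the time of collection was not tested.

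The other liver values overlapped. Srebf1 was at 27.2, 54.3 and 109 FPKM in estrus and 77.0, 71.7 and 88.2 FPKM in diestrus, and Scd1 was at 1908, 947 and 513 FPKM in estrus and 906, 1104 and 1051 FPKM in diestrus. Across the 3 estrus libraries Srebf1 was lowest where Scd1 was highest. Their log2 fold changes were -0.52 ± 0.44 and -0.06 ± 0.43. Elovl6 was at -0.53 ± 0.29 and Fasn, Dgat2 and Acaca were between -0.28 and -0.23.

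In vein all 10 fold changes were above 0, from 0.49 to 1.12, and they stayed above 0 under each of the 12 alternatives. Dgat2 alone was without overlap, at 542.5, 1118 and 915 FPKM in estrus and 499, 417 and 455 FPKM in diestrus, where 5.28% of all genes were above and 12.9% below. Its log2 fold change was 0.85 ± 0.28 with an adjusted p of 0.412 by limma. The adipocyte markers moved the same way, with 8 of 8 above 0 and a median of 0.51, and a summed level of 20269 to 27017 FPKM in estrus and 11757 to 19690 FPKM in diestrus. All 9 genes of the Dbp list were above 0, with a median of 1.29 and with Dbp at 4.60 FPKM in diestrus replicate 1. Their part in the result was not tested.

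In uterus Me1 was without overlap and higher in estrus, at 24.5, 17.9 and 20.7 FPKM against 13.2, 11.9 and 6.47 FPKM, and Fasn was without overlap and lower, at 15.5, 31.7 and 21.1 FPKM against 39.9, 32.7 and 55.1 FPKM. The background was 3.24% higher and 4.67% lower, beside 1 of the 10 tested members in each direction. The log2 fold changes were 0.98 ± 0.31 for Me1 and -0.90 ± 0.34 for Fasn. Thrsp in uterus had the largest fold change of all 147 pairs, -1.94 ± 0.92, with 8.01, 92.4 and 64.9 FPKM in estrus and 156, 269.6 and 73.3 FPKM in diestrus. Its adjusted p by limma was 0.897, it overlapped between the phases, and over 12 alternatives the adjusted p ran from 0.0216, in 1 fit of all 90 libraries, to 1.00.

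In skeletal muscle Me1 was at 131, 133 and 129 FPKM in estrus and 104, 111 and 119 FPKM in diestrus, the only member there without overlap, where 4.27% of all genes were above and 21.9% below. The log2 fold change was 0.23 ± 0.07, with the adjusted p of 0.136 by limma that was the smallest of all pairs. Dgat2 was at 29.5, 12.96 and 10.4 FPKM in estrus and 36.0, 29.1 and 45.5 FPKM in diestrus, and 1 estrus value lay within the range of diestrus. Its fold change of -1.14 ± 0.36 had an adjusted p of 0.143 by limma, and 0.0125 to 1 over 12 alternatives. Dgat2 was called at -1.56 without estrus replicate 1, the estrus library with the most Fasn, and at -1.33 with array weights in all 6 libraries.

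Spleen had 3 lower in estrus (Acly, Fasn and Scd1, at -0.19, -0.17 and -0.19) and 0 higher, where 5.7% and 3.09% of all genes were. Duodenum had 2 lower (Acaca at -0.73 and Mlxipl at -0.52) and 0 higher, where 22.1% and 4.51% were. Hypothalamus had 2 lower (Acaca at -0.10 and Fasn at -0.11) and 0 higher, where 9.64% and 9.96% were, and cerebrum had 1 lower (Acaca at -0.07) and 1 higher (Srebf1 at 0.23), where 2.88% and 4.92% were.

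Stomach had Me1 lower (-0.43) and Thrsp higher (0.78), where 12% of all genes were lower and 1.64% higher. With array weights limma called Thrsp (1.59), Dgat2 (1.33), Elovl6 (1.91) and Scd1 (2.21) higher in estrus in stomach, and Dgat2 (1.96) in duodenum. Their adjusted p-values by limma without weights were 0.700 to 0.720 in stomach and 0.368 in duodenum. The share of all genes called with array weights is not given here, so these calls have no background beside them. Kidney had Dgat2 lower (-0.27), where 3.73% were lower and 4.25% higher, and heart had Thrsp lower (-0.30), where 3.84% were lower and 7.91% higher. Aorta had 0 in either direction, where 9.54% of all genes were lower and 2.39% higher, and ovary had 0, where 5.58% were lower and 8.13% higher. Apart from BAT and spleen, no tissue had more than 2 of the members without overlap.

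Whether the effect of the phase differed between BAT, WAT and liver was tested with interaction terms in the fit of 90 libraries. None of the 10 genes was called by limma in any of the 3 contrasts, and 0 had an unadjusted p under 0.05. For BAT minus WAT the differences ran from 0.13 to 1.25, with Scd1 the largest at 1.25 ± 0.89 (adjusted p = 0.404, limma), where 0.269% of all genes were called higher and 5.15% lower. For BAT minus liver Thrsp was largest at 1.37 ± 0.83 (adjusted p = 0.387, limma), where 0.105% and 0.736% were called. Both contrasts include BAT estrus replicate 3. In the phase fits of BAT, WAT and liver alone, 0% of all genes were called in either direction. For WAT minus liver Thrsp was largest at 1.23 ± 0.83 (adjusted p = 1, limma), where 0% were called in either direction. A difference between these tissues in the effect of the phase was thus not detected in these libraries.

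**Figure D4:**
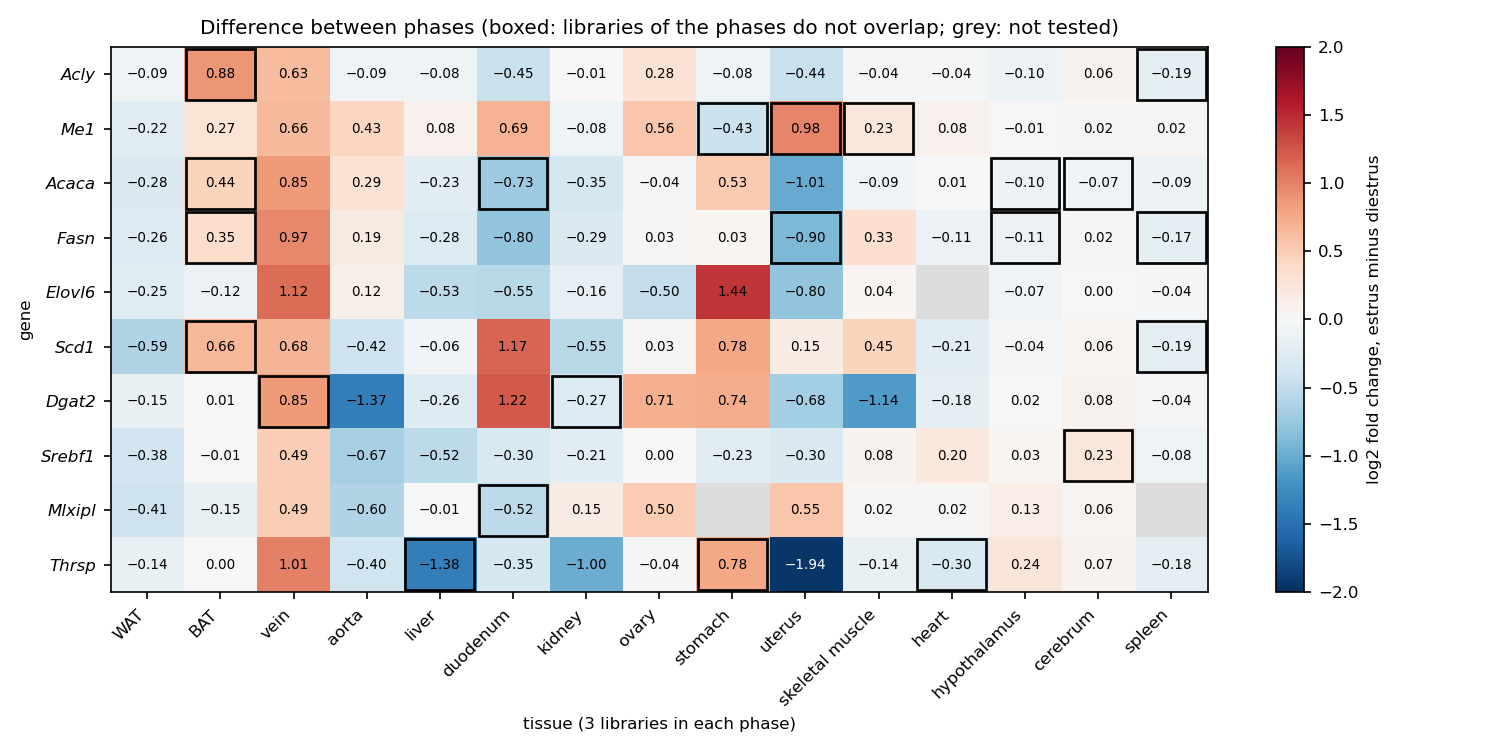
Log2 fold change of each gene, estrus minus diestrus, on the log2(FPKM + 1) scale in the 15 tissues, with red for higher and blue for lower in estrus, a box where the 3 libraries of a phase lay all above those of the other, and grey where a gene was not tested. Boxes stand at 9 pairs with estrus higher and 13 with estrus lower. Over all genes of a tissue, 1.64% to 12% were higher in this way and 2.74% to 22.1% lower. The boxes include Acly, Scd1, Acaca and Fasn in BAT and Thrsp in liver, and every tissue except WAT, aorta and ovary holds at least 1. No gene passed the limma test in any tissue.

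The members were also compared with each other within a tissue, as the Pearson r of their deviations from the mean of each phase on the log2 scale. These are descriptions over 6 libraries, and the members share the scale of each library. In WAT all 45 pairs of members were above 0, with a median r of 0.857. Srebf1 was the member least tied to the others there, with a median r of 0.380, and Me1 the most, at 0.958. Aorta and vein also had all 45 pairs above 0, with medians of 0.962 and 0.939.

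In BAT 33 of the 45 pairs were above 0, with a median of 0.401. Acly, Me1 and Acaca moved together (r of 0.980 for Acly and Me1 and 0.960 for Me1 and Acaca), and Fasn moved with Thrsp and Srebf1 (0.951 and 0.950). Scd1 moved with Mlxipl (0.952), and Dgat2 against Mlxipl (-0.717). These values include estrus replicate 3, the highest of the 6 for Fasn, Thrsp and Srebf1, and were not computed over the 5 libraries that remain without it.

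In liver 25 of the 45 pairs were above 0 and the median was 0.214. Srebf1, Thrsp and Dgat2 moved together, with an r of 0.950 for Srebf1 and Thrsp and 0.932 for Dgat2 and Srebf1. Scd1 moved against all 3, at -0.977 with Srebf1, -0.954 with Dgat2 and -0.893 with Thrsp. Fasn and Elovl6 had an r of 0.937. Estrus replicate 1, with its low Dbp, had the highest Scd1 and the lowest Srebf1, Dgat2 and Thrsp of the 6.

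**Figure D5:**
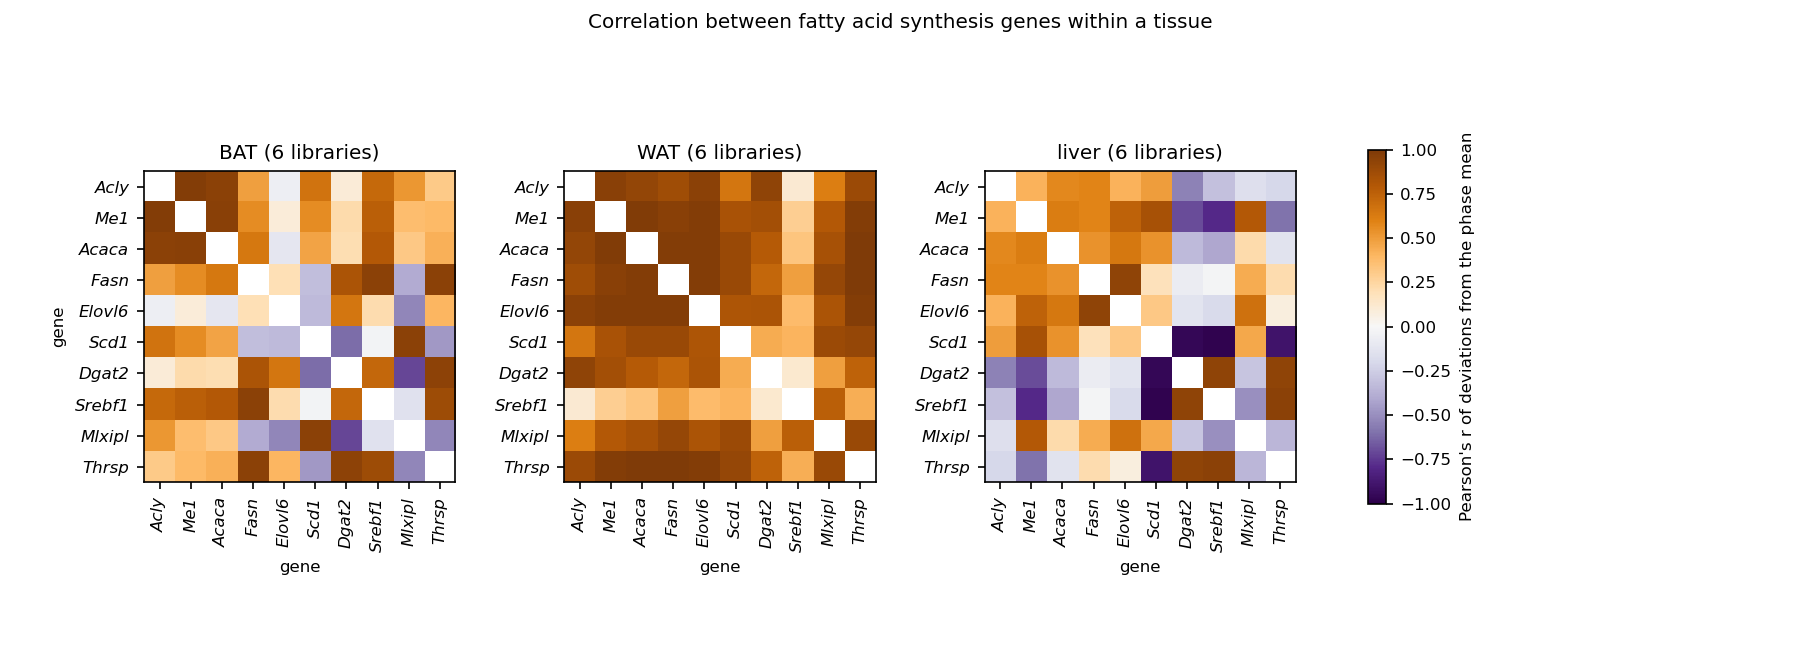
Pearson r between the 10 genes of their deviations from the phase means of log2(FPKM + 1), in 6 libraries each of BAT, WAT and liver. The colour runs from purple (-1) to orange (1). WAT is orange throughout with Srebf1 the palest, while liver shows a block of Srebf1, Thrsp and Dgat2 that runs opposite to Scd1.

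The genes whose tissue means were most like those of the members were found by the Pearson r over the 15 tissues with the mean of the standardised members, among 15226 genes. The first 10 that were not members were Echdc1 (0.972), Gm40011 (0.957), Nrg4 (0.955), Adrb3 (0.948), Acss3 (0.946), Aifm2 (0.936), Klb (0.935), Pnpla3 (0.933), Spata22 (0.933) and Pex13 (0.933). Echdc1 encodes ethylmalonyl-CoA decarboxylase, Adrb3 the beta adrenergic receptor of adipocytes and Klb beta-klotho. The members themselves had an r of 0.735 (Mlxipl) to 0.960 (Acaca) with this mean, to which each contributes.

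The genes most like the members in their deviations within BAT, WAT and liver, over 17 libraries without BAT estrus replicate 3, were Yae1d1 (0.943), Pdha1 (0.940), Pdhb (0.934), Gbe1 (0.931), the gene with the Entrez identifier 217615 and no symbol (0.931), Grb7 (0.925), Sacm1l (0.925), Ddo (0.924), Riok3 (0.924) and Ndufs3 (0.920). Pdha1 and Pdhb encode both subunits of the first component of pyruvate dehydrogenase, which makes mitochondrial acetyl-CoA, and Gbe1 encodes the glycogen branching enzyme. These libraries are few and share their tissues, so the values describe likeness only.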

How the data were processed

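RNA was sequenced on a BGISEQ-500 from 90 libraries, 3 for each of 15 tissues in estrus and in diestrus. The authors filtered the reads with SOAPnuke, and their processing notes name Bowtie2 2.2.5, RSEM 1.2.8 and GRCm38.p5. The deposited values, for 20414 genes by Entrez identifier, carry no unit and were taken as FPKM from their form and from RSEM. They came without counts, so the exact depth is unknown and no counting interval is given. Symbols of 20265 genes and all promoter sequences came from RefSeq tables of GRCm38.p6. Tissue, phase and replicate were taken from the labels, and 0 columns were left out.

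From the FPKM, log2(FPKM + 1) was computed and tested with limma (version 3.58.1, under R 4.3.3), its spread following a trend on the level, and Benjamini-Hochberg adjustment over all tested genes. Phases were tested within each tissue (genes averaging 1 FPKM or more in its 6 libraries), tissues and interactions in 1 fit of 90 libraries (15226 genes). The procedure was tested on simulated data. Other values used Python 3.11.15, numpy 2.4.6, pandas 2.3.3, scipy 1.17.1 and matplotlib 3.10.9.

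The members and the lists were chosen with earlier results of these data known. The genes named were all members, called genes of the pathway lists (at most 5 per list and comparison), the 10 genes most like the members by either measure and marker genes. Alternatives were a pseudocount of 0.1, no filter, upper quartile scaling, array weights, 1 fit of all libraries, a fit of only the tissues compared, the replicate number or the mouse as a block, no limit on the fold and each library left out. Upper quartile scaling used the values above 0 of each library and kept BAT estrus replicate 3. Count tests were not run. The counts of the pathway lists omit an item that is not reported here.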

Additional observations from a re-analysis of the deposited data

Results flagged for a closer look

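Of the 150 pairs of a gene and a tissue, 14 had a library that stood apart from the other 5 of its tissue, by a gap to its nearest neighbour of more than 0.625 of the whole range (Dixon's 95% limit for 6 libraries). Chance flags about 1 in 20 groups.

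In stomach, Acly was at 44.2 FPKM in diestrus replicate 2 and at 30.3 to 35.3 FPKM in the others. Elovl6 was at 61.8 FPKM in estrus replicate 3, with 4.43 to 25.9 FPKM in the rest. In estrus replicate 1 of stomach, Scd1 was at 27.2 FPKM where the other libraries held 2.51 to 6.89 FPKM, and Thrsp was at 6.39 FPKM where they held 0.9 to 2.26 FPKM.

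In duodenum estrus replicate 1, Me1 was at 107 FPKM against 11.2 to 23.2 FPKM, and Scd1 at 21.5 FPKM against 2.83 to 7.43 FPKM. The epithelial gene Epcam was at 244 FPKM in that library and at 571 to 621 FPKM in the other duodenum libraries.

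In ovary, Me1 was at 675 FPKM in estrus replicate 1, above 234 to 394 FPKM in the rest, and Dgat2 was at 18.4 FPKM in estrus replicate 3, above 4.41 to 5.95 FPKM. The latter library also had Adipoq at 20.6 FPKM and Epcam at 35.9 FPKM.

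In uterus, Acly was at 12.2 FPKM in estrus replicate 3, below 25.7 to 29.4 FPKM in the rest, and Dgat2 was at 215 FPKM in diestrus replicate 2, above 68.8 to 124 FPKM. The squamous keratin Krt14 was at 156 FPKM in uterus estrus replicate 3.

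In aorta, Me1 was at 547 FPKM in estrus replicate 3, above 86.0 to 184 FPKM in the rest, and Dgat2 was at 56.8 FPKM in estrus replicate 1, below 876 to 1275 FPKM. Srebf1 in spleen was at 15.9 FPKM in estrus replicate 2 and at 18.5 to 19.7 FPKM in the rest. Mlxipl in WAT was at 61.8 FPKM in estrus replicate 1 and at 125 to 163 FPKM in the rest. The part of other cell types, or of 1 library, in these values was not tested.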

How the results depend on the processing

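The 45 calls of a member between tissues kept their direction in all 1054 alternative values. Of these, 4 were no longer called, all of Fasn in liver against the 12 tissues, at 0.98 with array weights and 0.95 to 0.99 in 3 of the fits without a liver library (0.95 to 1.15 over all libraries left out). Upper quartile scaling added Acly, Acaca and Elovl6 in liver, at 1.17, 1.11 and 1.33, and a pseudocount of 0.1 added Elovl6, at 1.02. Between phases the count over all tissues went from 0 to 6 with array weights (stomach 4, duodenum 1, skeletal muscle 1) and to 1 in 1 fit of 90 libraries (uterus, 1). The shares of all genes called under these settings are not given here, so the counts have no background beside them. Leaving out estrus replicate 1 gave 1 call in skeletal muscle, in a range of 0 to 1. Which property of the libraries caused this was not tested. Files without counts limit what can be said of low values, and DESeq2 and edgeR were not run.

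Same-numbered estrus and diestrus libraries of a tissue were not regularly correlated. In 0 of 15 tissues was every such pair over 0.1, and 9 of 45 pairs were (r from -0.57 to 0.47). The phases came from different mice, so these values do not show whether a replicate number marks the same mouse across tissues. With the replicate block, 0 members were called between phases and 0 in the interactions, and the 45 calls between tissues held with phase and replicate number taken as the mouse and used as a block, an assumption that the labels do not give.

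The following values, none of them called, turned direction, and those of BAT with upper quartile scaling include estrus replicate 3. With upper quartile scaling, Me1 in liver against the 12 tissues was at 0.52 (0.0072 with a pseudocount of 0.1), Fasn in BAT against WAT at -0.073, Mlxipl in BAT against liver at -0.35, and in the phases Me1, Fasn and Dgat2 in BAT at -0.15, -0.069 and -0.41 and Mlxipl in liver at 0.026. With array weights, Fasn and Elovl6 in BAT against WAT were at -0.080 and -0.045, and in the phases Dgat2 in BAT was at -0.14, Mlxipl in liver at 0.047, and Acly, Me1, Elovl6, Srebf1, Mlxipl and Thrsp in WAT at 0.12, 0.071, 0.29, 0.042, 0.00058 and 0.19. With 1 library left out, the ranges were -0.11 to 0.083 for Me1 in liver against the 12 tissues, -0.059 to 0.13 for Fasn and -0.15 to 0.40 for Elovl6 in BAT against WAT, and -0.46 to 0.032 for Srebf1 in BAT against liver. In the phases they were -0.14 to 0.25, -0.29 to 0.19 and -0.23 to 0.24 for Dgat2, Srebf1 and Thrsp in BAT, -0.80 to 0.43, -0.75 to 0.27, -0.81 to 0.30 and -0.46 to 0.30 for Acly, Me1, Elovl6 and Thrsp in WAT, and -0.26 to 0.10, -0.059 to 0.34, -0.13 to 0.12 and -0.54 to 0.40 for Acly, Me1, Mlxipl and Scd1 in liver.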

Other observations

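Gene groups next to fatty acid synthesis gave further values in fat. The summed level of 10 genes of cholesterol synthesis and sterol uptake in BAT was 157 to 166 FPKM in estrus and 113 to 128 FPKM in diestrus, without overlap and with the estrus library that stood apart (replicate 3) included, although of the 9 genes tested 4 were above 0 and 5 below. The largest parts of this sum were Hmgcs1, with means of 70.4 FPKM in estrus and 37.3 FPKM in diestrus, and Fdft1, with 53.1 and 43.6 FPKM. The summed level of 10 genes of the fasting response in BAT was 1782 to 2635 FPKM in estrus and 1215 to 1322 FPKM in diestrus. Its largest parts were Pck1, with means of 1566 and 964 FPKM, and Pdk4, with 456 and 205 FPKM. Of the 7 tested genes of the fasting response, 3 were above 0 and 4 below. The 3 had no overlap, where 12% of all genes in BAT were higher in estrus without overlap. None of these genes was called by limma, and 1 and 3 of them had an unadjusted p under 0.05.

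In liver the same sums overlapped, at 644 to 812 FPKM in estrus and 479.9 to 784 FPKM in diestrus for cholesterol synthesis and at 2158 to 2548 and 1895 to 2285 FPKM for the fasting response. In stomach Elovl6 was at 25.9, 4.43 and 61.8 FPKM in estrus and 10.5, 5.34 and 5.33 FPKM in diestrus. Krt14, a keratin of squamous epithelium, was at 433, 15.4, 728, 192, 38.9 and 0.05 FPKM in the same order, and the 3 libraries with the most Krt14 were the 3 with the most Elovl6. The part of squamous epithelium in these values was not tested.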
